A study of Rattus norvegicus with 84 samples.

Results

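Liver of aged rats given RAD001 (treated aged liver) was compared with liver of young rats given vehicle (young liver), which asks how the treated aged organ stood against the young one. The members were taken from the sample titles: 8 libraries of treated aged liver and 10 of young liver, 18 of the 84 libraries of the series. The rats were males of the outbred Sprague Dawley stock, studied at 24 months in the treated group and at 6 months in the young group. Treated rats started at 22.5 months and took RAD001 by mouth once a week for 6 weeks, 7 doses in all, with vehicle on the remaining days. Young rats started at 4.5 months and took vehicle for the same 6 weeks, where the vehicle was the diluted microemulsion without the drug in methylcellulose. Another liver group, 10 libraries of 24-month rats on vehicle (aged vehicle), entered the same fit, and its level is given beside many of the genes described. No young rats received RAD001, so in this contrast age and drug cannot be told apart. The labels do not say whether each library came from a separate rat, and p-values measure the spread between libraries, which may in part be technical.

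RAD001 is everolimus, a rapamycin analog that binds the small protein FKBP12 and then inhibits mTORC1, the kinase complex that couples amino acid and insulin signals to ribosome production, protein synthesis and lipid synthesis and restrains autophagy. In liver, mTORC1 lies downstream of the insulin receptor, and its lipid arm runs through the SREBP transcription factors. Adult male rats release growth hormone in pulses that act through STAT5B in hepatocytes and maintain a male pattern of P450 enzymes and secreted proteins, whereas the steadier release of females maintains a female pattern. Growth hormone and its hepatic product IGF-1 are known to decline with age.

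Values are read coverage per base of a locus, scaled between libraries, so that levels can be compared between genes. Levels are given as the group median with the lowest and highest library in brackets, aged vehicle levels as mean ± SD (n = 10), and changes as log2 differences, treated minus young unless another pair is named, ± SE. Because 0.1 was added to each scaled value before taking logarithms, the change of a gene with low coverage is understated. Adjusted p-values are from limma with Benjamini-Hochberg adjustment over the 8991 loci tested, and a gene was called at an adjusted p under 0.05. Where genes have near-identical copies (the Cyp2c, Cyp3a, Cyp4a, Akr1c, Mup, alpha-globin and ribosomal protein families), reads may be divided between them and the values are uncertain to that extent.

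The relative depth of the 28 liver libraries spanned 0.858 to 1.3, and 11697 to 12522 loci had a value above 0. The hepatocyte transcript Alb was at 3346 (3171 to 3893) in young and 2849 (2338 to 4157) in treated liver, and all 10 kidney and muscle markers in the tables stayed under 0.1 in every liver library. The RNA component of the signal recognition particle, 7SL, which was the most covered locus, set some libraries apart: in 7 of the 28 its deposited value lay under 0.75 of the liver median. These were 4 young (replicates 4, 5, 6 and 8) and 3 aged vehicle libraries, and no treated one. The deposited 7SL value was 18650 ± 5541 (SD, n = 10) in young and 22220 ± 917 (SD, n = 8) in treated liver, and that of the ribosomal RNA precursor Rn45s was 323 ± 93.8 (SD, n = 10) and 416.6 ± 39.7 (SD, n = 8). An exact two-sided permutation test gave p = 0.0948 for 7SL and p = 0.0185 for Rn45s (0.121 and 0.0323 after Benjamini-Hochberg adjustment over 14 such values). Without the 4 low-7SL young libraries the Rn45s values were 384.5 ± 63.1 (SD, n = 6) in young and 416.6 ± 39.7 (SD, n = 8) in treated liver (exact permutation p = 0.262). List counts are also given without the 7 low-7SL libraries.

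On the leading principal component, which held 28.9% of the variance, every young library scored between -27.1 and -7.23 and every treated library between 4.95 and 21.5. The second component held 15.5%. On it the 6 other young libraries (-14.5 to -4.55) covered the range of the treated ones (-13.3 to -5.14), and the 4 low-7SL young libraries lay higher (-2.03 to 9.7). The first component thus placed treated aged liver on the side of aged vehicle liver (0.759 to 14.5), and the second placed it beside the young libraries of ordinary 7SL level.

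**Figure D1:**
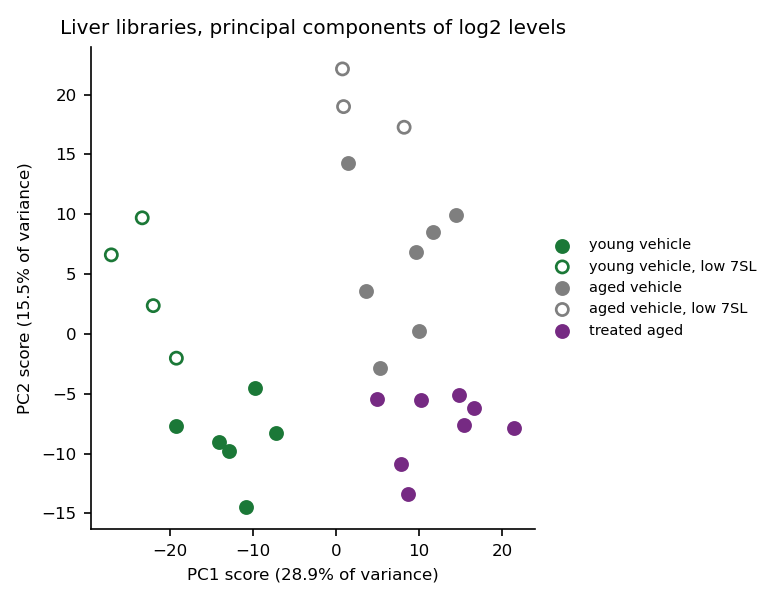
Scores of the 28 liver libraries on the leading 2 principal components of the log2 levels, with open circles for libraries of low 7SL. Young libraries lie at -27.1 to -7.23 on the horizontal axis and treated aged libraries at 4.95 to 21.5, while aged vehicle libraries share the right side and lie higher on the vertical axis.

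Between treated aged and young liver, 3135 of 8991 loci were called, or 34.9%. Of these, 1642 were higher in treated liver (18.3% of loci tested) and 1493 lower (16.6%), and the median change over all loci was 0.02. In 4.26% of loci the treated and young libraries did not overlap, with the treated ones above in 2.02% and below in 2.24%. Without the 7 low-7SL libraries 1652 of 8855 loci were called (18.7%), 850 higher (9.6%) and 802 lower (9.06%). All 3091 called loci that were tested in both fits kept their sign, and 1562 were called in both. The list counts below are to be read beside these shares, and the plot of list counts shows both.

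**Figure D2:**
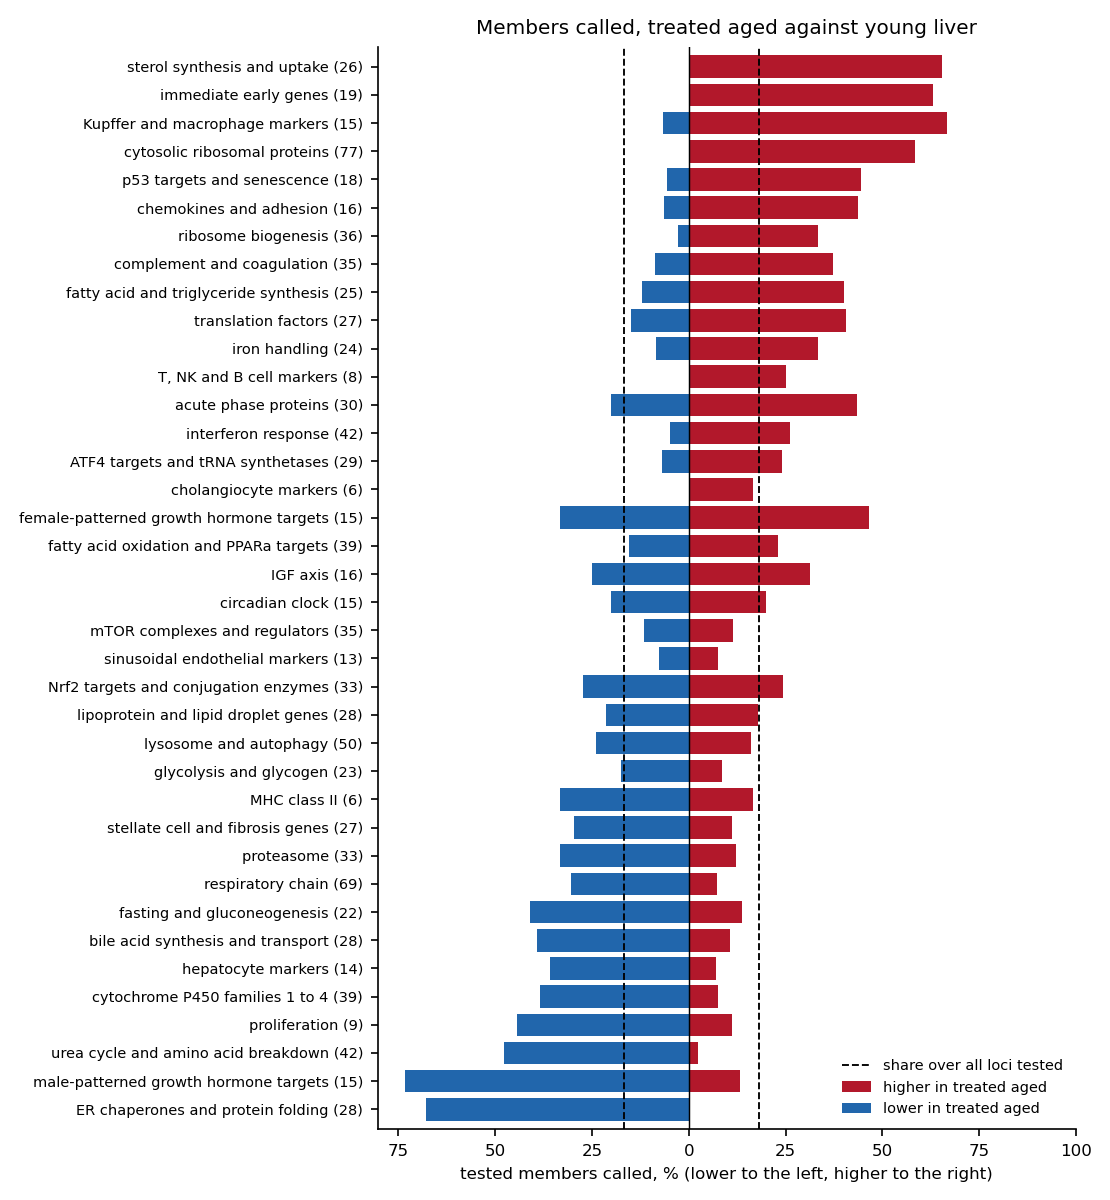
Share of the tested members called, for each list with at least 6 tested, lower (bars to the left) or higher (bars to the right) in treated aged against young liver, with the number of members tested in brackets. Dashed lines mark the shares over all loci tested, 16.6% lower and 18.3% higher. Lists are ordered by the higher share minus the lower share, with sterol synthesis (17 of 26 higher, none lower) at the top. ER chaperones and protein folding (19 of 28 lower) and male-patterned growth hormone targets (11 of 15 lower) are at the bottom.

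Genes that growth hormone pulses keep high in male liver were far lower in treated aged liver than in young liver. Of 15 tested male-patterned targets 11 fell and 2 rose, with a median change of -1.04. Without the low-7SL libraries 8 fell and 2 rose. The largest change on the list was in Stac3, an adaptor protein best known from the calcium channel of skeletal muscle, encoded at chr7:70981252-70988655 in the rn5 coordinates of the files. Stac3 was at 11.7 (8.5 to 17.5) in young and 0.955 (0.0916 to 3.54) in treated liver without overlap, a log2 change of -3.71 ± 0.46 (adjusted p = 1.01e-06). In aged vehicle liver it stood at 0.448 ± 0.536, so both aged groups were low. Dhrs7, a short-chain dehydrogenase at chr6:104917830-104940633, went from 11.3 (5.69 to 17.8) to 0.845 (0.38 to 3.93), again without overlap, a change of -3.16 ± 0.38 (adjusted p = 6.96e-07). The major urinary protein Mup4, a carrier of pheromones (chr5:81442969-81446321), was at 7.09 (4.0 to 10.2) in young and 1.01 (0.848 to 2.05) in treated liver, a change of -2.42 ± 0.25 (adjusted p = 4.25e-08). Its aged vehicle level was 0.912 ± 0.473. The highest treated library was thus below the lowest young library for all 3 genes.

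Cyp2c11 is the main male-specific P450 of rat liver and hydroxylates testosterone (chr1:265418158-265454571). Its level was 113 (96.6 to 163) in young and 49.2 (26.6 to 87.6) in treated liver, where the groups did not overlap (-1.22 ± 0.29, adjusted p = 0.00224). The aged vehicle mean was 37.8 ± 18.1. Cyp3a18, another male-patterned P450, read 25.8 (14.5 to 34.8) and 12 (8.09 to 15.4) in the same order, a change of -1.04 ± 0.24 (adjusted p = 0.0016), and 8 of 8 treated libraries lay below the young median. Regucalcin (Rgn, at chrX:2626525-2641949), a calcium-binding protein named senescence marker protein because it declines in aging rat liver, fell from 38.1 (21.1 to 45.1) to 13.8 (10.4 to 18.3) without overlap, a change of -1.40 ± 0.15 (adjusted p = 7.18e-08). Its aged vehicle level was 15.2 ± 3.55. Carbonic anhydrase 3 (Car3), an abundant cytosolic enzyme of male rat liver that was not on the list, fell from 123 (57.1 to 198) to 15.1 (3.98 to 59.5), a change of -2.71 ± 0.36 (adjusted p = 2.24e-06). The male-patterned members that went the other way were Cyp2c22 (0.66 ± 0.17) and Cyp4a2 (2.72 ± 0.39). Cyp4a2 is a fatty acid omega-hydroxylase that is also a target of PPAR-alpha, and it is described with those genes.

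The female-patterned list was mixed: of 15 tested members 7 rose and 5 fell (5 and 4 of 14 without the low-7SL libraries), with a median change of 0.62. The prolactin receptor and Akr1b7, which rose, were close to 0 in young liver. The prolactin receptor Prlr (chr2:84360850-84554681) was at 0.0275 (0.00384 to 0.16) in young and 0.745 (0.29 to 1.26) in treated liver, with every treated library above every young one (2.42 ± 0.29, adjusted p = 7.19e-07). Akr1b7, an aldo-keto reductase at chr4:61588010-61600050, was at 0.0263 (0.00936 to 0.16) and 0.853 (0.344 to 2.39), also without overlap, a change of 2.98 ± 0.38 (adjusted p = 1.38e-06). In aged vehicle liver Akr1b7 was higher still, at 3.26 ± 3.21, and the treated level lay below that (-1.24 ± 0.38 against aged vehicle, adjusted p = 0.027). Steroid 5-alpha-reductase Srd5a1 rose from 1.13 (0.829 to 2.09) to 3.81 (2.75 to 5.92) without overlap, a change of 1.51 ± 0.28 (adjusted p = 0.000213). In aged vehicle liver its mean was 4.72 ± 3.86 and its median 3.15 (1.94 to 13.2). Treated liver was not called against aged vehicle liver (0.04 ± 0.28, adjusted p = 0.939). The basolateral exporter Abcc3, which moves conjugated bile acids and glucuronides to the blood, rose from 0.0569 (0.0312 to 0.417) to 0.453 (0.0845 to 0.881), a change of 1.56 ± 0.29 (adjusted p = 0.000197). Cyp2c12, the textbook female-specific P450, was not called: its levels were 3.29 (2.1 to 5.08) in young and 5.68 (4.05 to 8.41) in treated liver, a change of 0.81 ± 0.44 (adjusted p = 0.154). Aged vehicle liver was more spread for this gene, at 24.9 ± 35.9. Its median was 8.57, and replicates 1 and 6 lay far above it (102 and 82.2).

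The 5 members of the female-patterned list that fell were Cyp3a9, Akr1c1, Hao2, Cyp2c7 and Sult2a1. The P450 Cyp3a9 went from 1.77 (0.599 to 3.12) to 0.266 (0.101 to 0.39) with no overlap, a change of -2.28 ± 0.25 (adjusted p = 1.18e-07). Hao2, a peroxisomal hydroxyacid oxidase, went from 38.1 (20.8 to 48.8) to 8.56 (7.43 to 17.2), again without overlap, a change of -1.84 ± 0.23 (adjusted p = 1.01e-06). It stood at 5.89 ± 2.13 in aged vehicle liver, below the treated level (treated minus aged vehicle 0.82 ± 0.23, adjusted p = 0.0168). Members of this list thus moved in both directions. In aged vehicle replicates 1 and 6, which were highest of that group for Cyp2c12 (102 and 82.2), Cyp2c7 and Sult2a1 were also highest. Hao2 and Akr1c1 were lowest there, and Cyp3a9 was neither in both. Whether each listed member is female-patterned in these rats was not tested.

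**Figure D3:**
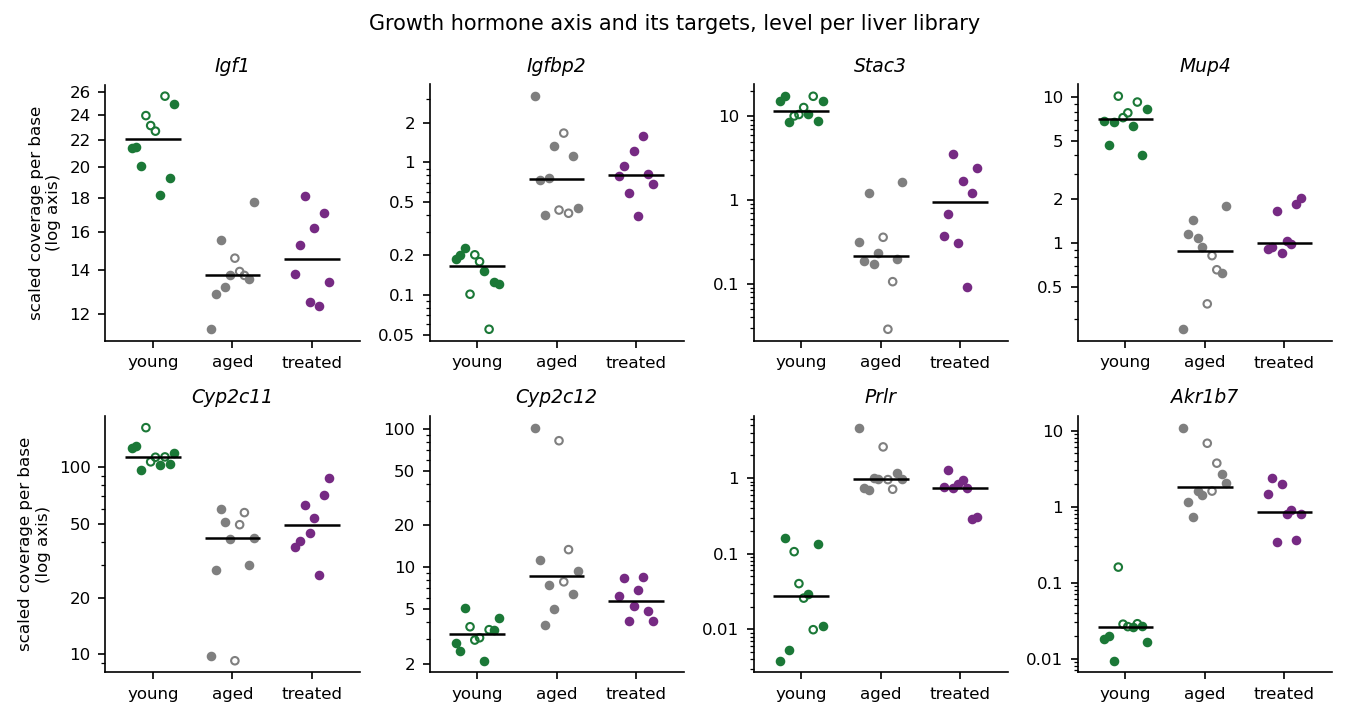
Scaled coverage per base on a log axis in each liver library for 8 genes of the growth hormone axis. Points are libraries (open for low 7SL) and lines are group medians. Stac3, Mup4 and Cyp2c11 are lower in every treated library than in any young one, Prlr and Akr1b7 are higher, and Cyp2c12 overlaps.

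Genes of the circulating IGF-1 system also differed. Of 16 tested genes of the IGF axis 5 rose and 4 fell (3 and 4 without the low-7SL libraries), beside 18.3% higher and 16.6% lower over all loci. The 4 that fell were Igf1, Igfals, Ghr and Igfbp3, which encode the hormone, its acid-labile carrier subunit, the growth hormone receptor and the main carrier protein. Igf1 (chr7:28528240-28602541) was at 22.1 (18.2 to 25.6) in young and 14.5 (12.3 to 18.1) in treated liver, so that the highest treated library lay just under the lowest young one (-0.57 ± 0.084, adjusted p = 9.73e-06). Aged vehicle liver read 14 ± 1.69. The receptor Ghr read 13.4 (11.1 to 15.9) and 10.9 (7.76 to 11.4), a change of -0.38 ± 0.088 (adjusted p = 0.00161), and here treated liver was also below aged vehicle liver (12.5 ± 1.65; -0.27 ± 0.088, adjusted p = 0.039). Igfals changed by -0.55 ± 0.16 (adjusted p = 0.0109) and Igfbp3 by -0.45 ± 0.094 (adjusted p = 0.000586). The 5 that rose were Igfbp1, Igfbp2, Socs2, Socs3 and Stat5b, of which Socs2 and Stat5b were not called without the low-7SL libraries. Igfbp1, a binding protein that insulin represses, rose from 0.329 (0.187 to 1.4) to 1.46 (0.634 to 4.53), a change of 1.74 ± 0.37 (adjusted p = 0.00075), and 8 of 8 treated libraries lay above the young median. Igfbp2 (chr9:79888642-79915193) rose from 0.164 (0.0549 to 0.224) to 0.802 (0.392 to 1.59) without overlap, a change of 1.88 ± 0.28 (adjusted p = 1.37e-05), and its aged vehicle level was 1.05 ± 0.862.

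Of 39 tested P450 genes of families 1 to 4, 15 fell and 3 rose (13 and 3 of 38 without the low-7SL libraries), with a median change of -0.14. The 3 that rose were Cyp4a2, Cyp4a3 and Cyp2c22. Cyp2e1, which oxidises ethanol and acetone, fell from 77.7 (63.9 to 108) to 52.3 (45.5 to 68.5), a change of -0.60 ± 0.12 (adjusted p = 0.000333), and 8 of 8 treated libraries lay below the young median. The phenobarbital-inducible Cyp2b2 fell from 0.412 (0.203 to 0.861) to 0.127 (0.0592 to 0.212), a change of -1.12 ± 0.21 (adjusted p = 0.000227). Cyp2c7, which hydroxylates retinoic acid, fell from 15 (11.9 to 36.9) to 6.77 (2.71 to 9.72) without overlap, a change of -1.53 ± 0.35 (adjusted p = 0.00134).

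Among 28 tested genes of bile acid synthesis and transport 11 fell and 3 rose (5 and 2 without the low-7SL libraries), with a median of -0.25. Uptake from blood was represented by Slco1b2 (chr4:240035313-240103015), an organic anion transporter, which fell from 26.2 (17.1 to 39) to 12.1 (9.59 to 14.6) without overlap, a change of -1.06 ± 0.14 (adjusted p = 1.56e-06). Treated liver was also below the aged vehicle level of 17.4 ± 3.1 (-0.51 ± 0.14, adjusted p = 0.0146). The sodium-dependent uptake carrier Slc10a1 fell from 20.7 (15.6 to 26.9) to 15.8 (13.2 to 17.8), a change of -0.42 ± 0.096 (adjusted p = 0.0014). On the canalicular side Abcc2, the exporter of conjugated bilirubin, fell from 17.5 (12.4 to 23.4) to 10.6 (6.72 to 12.4) without overlap, though the ranges nearly met, a change of -0.76 ± 0.13 (adjusted p = 5.03e-05). Abcb4, the phospholipid exporter of bile, rose from 1.75 (0.879 to 2.02) to 2.51 (1.74 to 7.38), a change of 0.82 ± 0.22 (adjusted p = 0.00445), and the other members that rose were Abcc3 and Fgfr4. Amacr, the racemase of bile acid side-chain shortening, fell from 15.5 (11.4 to 23.3) to 9.31 (5.63 to 10.6) without overlap, a change of -0.83 ± 0.15 (adjusted p = 0.000113). Cyp7a1, the rate-limiting enzyme of bile acid synthesis, was at 3.16 (1.44 to 6.05) in young and 1.76 (0.261 to 3.47) in treated liver and was not called (-1.12 ± 0.49, adjusted p = 0.0734).

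Cholesterol synthesis genes stood higher in treated aged liver. Of 26 tested members of the sterol list 17 rose and none fell, with a median change of 0.44 against 0.02 over all loci. Without the low-7SL libraries 15 rose and none fell. Insig1, the ER anchor that retains the sterol-sensing complex, rose from 7.23 (4.79 to 12.8) to 13.1 (10.03 to 20.7), a change of 0.79 ± 0.19 (adjusted p = 0.0024). Scap, the escort of the SREBP factors (chr8:117914034-117972290), rose from 0.553 (0.346 to 0.62) to 0.769 (0.693 to 1.15) without overlap, a change of 0.61 ± 0.10 (adjusted p = 5.66e-05). The factor Srebf2 itself rose from 0.964 (0.648 to 1.21) to 1.46 (1.03 to 1.64), a change of 0.51 ± 0.098 (adjusted p = 0.00028). Srebf2 was 1.04 ± 0.168 in aged vehicle liver, below the treated level (0.42 ± 0.098, adjusted p = 0.00744). The mevalonate enzyme Pmvk rose from 2.59 (2.06 to 3.83) to 4.84 (3.68 to 5.31), a change of 0.66 ± 0.12 (adjusted p = 0.00018). Unlike Srebf2, the genes Insig1, Scap and Pmvk were not called against aged vehicle liver (adjusted p = 0.313, 0.0696 and 0.17). The median change of the list was 0.28 for aged vehicle minus young liver and 0.16 for treated minus aged vehicle liver. The synthase Hmgcs1, an early enzyme of the pathway, was at 14.1 (8.83 to 28.4) in young and 21.8 (12.5 to 35.1) in treated liver and was not called, with a change of 0.27 ± 0.22 (adjusted p = 0.328).

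Of 25 tested genes of fatty acid and triglyceride synthesis 10 rose and 3 fell (6 and 3 without the low-7SL libraries), with a median of 0.33. Fads2, the delta-6 desaturase of polyunsaturated fatty acids, rose from 16.3 (10.7 to 27.3) to 33.7 (20.8 to 39.8), a change of 0.91 ± 0.16 (adjusted p = 7.07e-05), and treated liver was also above the aged vehicle level of 22.1 ± 5.2 (0.54 ± 0.16, adjusted p = 0.0207). Aacs, which makes acetoacetyl-CoA for lipid synthesis, rose from 0.35 (0.0904 to 0.769) to 1.05 (0.565 to 3.11), a change of 1.34 ± 0.30 (adjusted p = 0.00108). Fatty acid synthase Fasn was at 8.13 (4.36 to 26.7) in young and 18.3 (11.5 to 31.1) in treated liver, a change of 1.09 ± 0.27 (adjusted p = 0.00284). Without the low-7SL libraries the change was 0.64 and not called (adjusted p = 0.108), and with the 7SL level as a covariate it was 0.86 and called (adjusted p = 0.0187). Pnpla3, a lipid droplet hydrolase, changed by 1.91 ± 0.54 (adjusted p = 0.0072), by 1.38 without those libraries (adjusted p = 0.0998) and by 1.74 with the covariate (adjusted p = 0.0273). In aged vehicle liver Fasn was at 16.7 ± 4.89, Aacs at 1.125 ± 0.484 and Pnpla3 at 5.25 ± 3.28. Unlike Fads2, none of these 3 genes was called between treated and aged vehicle liver (adjusted p = 0.57, 0.859 and 0.855). Dgat2, which makes triglyceride, fell from 14.2 (11.6 to 16) to 9.65 (7.43 to 14.7), a change of -0.47 ± 0.13 (adjusted p = 0.00784), and the elongases Elovl2 and Elovl5 also fell. The factor Srebf1 was at 5.8 (3.17 to 7.54) in young and 5.79 (3.76 to 9.98) in treated liver and was not called, with a change of 0.03 ± 0.19 (adjusted p = 0.906).

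Of 39 tested genes of fatty acid oxidation and targets of the fasting receptor PPAR-alpha 9 rose and 6 fell (7 and 2 without the low-7SL libraries), with a median of -0.04, beside 18.3% higher and 16.6% lower over all loci. The rises took in both omega-hydroxylases, the secreted factors Fgf21 and Angptl4, the thioesterases Acot2 and Acot3, and Ehhadh of the peroxisome. Cyp4a2 (chr5:137989327-138000280) rose from 1.26 (0.544 to 4.63) to 10.5 (3.74 to 29.9), a change of 2.72 ± 0.39 (adjusted p = 6.57e-06), with 6.21 ± 3.28 in aged vehicle liver. Its neighbour in function Cyp4a3 rose from 5.63 (3.62 to 10.9) to 11.7 (8.38 to 22), a change of 0.94 ± 0.18 (adjusted p = 0.000228). The hormone Fgf21, which liver releases in fasting (chr1:102674359-102675602), rose from 0.487 (0.278 to 0.975) to 2.12 (0.75 to 4.73), a change of 1.92 ± 0.27 (adjusted p = 5.18e-06). It was 1.19 ± 0.465 in aged vehicle liver, below the treated level (0.91 ± 0.27, adjusted p = 0.0225). Angptl4, the inhibitor of lipoprotein lipase, rose from 1.03 (0.395 to 2.83) to 4.31 (1.34 to 7.6), a change of 1.58 ± 0.37 (adjusted p = 0.0019), and Pdk4, which blocks pyruvate oxidation, from 1.11 (0.836 to 1.97) to 2.11 (0.759 to 3.91), a change of 0.66 ± 0.20 (adjusted p = 0.0106). Both also lay above aged vehicle liver (1.32 ± 0.37 and 1.15 ± 0.20, adjusted p = 0.0187 and 0.000702). Of the oxidation enzymes Acadm, the medium-chain dehydrogenase, fell from 19.9 (15.8 to 22.6) to 16 (12.5 to 18.9), a change of -0.30 ± 0.087 (adjusted p = 0.00829), and the carnitine transferase Cpt1a was not called (0.46 ± 0.21, adjusted p = 0.0878). Acsm3, a medium-chain acyl-CoA synthetase, fell from 5.97 (4.2 to 8.31) to 3.02 (1.3 to 4.26), a change of -1.18 ± 0.21 (adjusted p = 0.000113).

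Genes of amino acid breakdown were lower in treated aged liver. Of 42 tested genes of the urea cycle and amino acid breakdown 20 fell and 1 rose, with a median of -0.24, and without the low-7SL libraries 19 fell and 1 rose. The member that rose was Hpx, the heme-binding plasma protein hemopexin, which has no role in amino acid breakdown. Serine dehydratase Sds, which turns serine into pyruvate for glucose synthesis (chr12:43473324-43480635), fell from 2.32 (1.28 to 4.55) in young to 0.16 (0.0295 to 0.852) in treated liver without overlap, a change of -3.14 ± 0.36 (adjusted p = 3.03e-07). Aged vehicle liver lay between them at 1.15 ± 0.778, above the treated level (-1.95 ± 0.36, adjusted p = 0.00131). The urea cycle enzymes of the mitochondrion fell too: Cps1, its entry enzyme, went from 91.1 (79.3 to 107) to 54.8 (38 to 66.7), a change of -0.77 ± 0.10 (adjusted p = 2.24e-06) and Otc from 23.9 (20.7 to 29.3) to 13.7 (10.1 to 16.6), a change of -0.83 ± 0.10 (adjusted p = 1.17e-06). Neither overlapped between the groups, and both were below aged vehicle liver (-0.33 ± 0.10 and -0.47 ± 0.10, adjusted p = 0.027 and 0.00521). Ornithine aminotransferase Oat fell from 9.63 (6.38 to 14.1) to 3.37 (1.83 to 6.92), a change of -1.36 ± 0.24 (adjusted p = 8.68e-05). Kynureninase Kynu, of tryptophan breakdown, fell from 9.19 (6.26 to 14.4) to 5.22 (3.2 to 5.89) without overlap, a change of -1.02 ± 0.16 (adjusted p = 3.11e-05), and its aged vehicle mean of 5.27 ± 1.26 was near the treated one (-0.12 ± 0.16, adjusted p = 0.628). The hepatocyte marker list fell with this group in part: 5 of 14 members fell (Cps1, Ahsg, Hpd, Tat and Serpina1), 1 rose (Fgb), against 5 and 0 without the low-7SL libraries. The summed marker level was 6174 to 7104 in young and 4893 to 7287 in treated liver. An exact permutation test on that sum gave p = 0.0331 (0.0516 adjusted over 14 values). The sum is weighted to its most covered members. Alb, its largest part, had a median of 3346 in young and 2849 in treated liver and was not called (-0.20 ± 0.14, adjusted p = 0.277). In bulk tissue fewer cells of a type and less RNA per cell cannot be told apart, and the part of this sum in the result was not tested.

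The fasting and gluconeogenesis list had 9 of 22 tested members lower and 3 higher (9 and 1 without the low-7SL libraries), with a median of -0.11. Those that fell were mostly the transaminases and dehydratases that feed carbon in. Got1, the cytosolic aspartate aminotransferase, fell from 3.88 (3.2 to 5.59) to 2.11 (1.56 to 2.5) without overlap, a change of -0.94 ± 0.11 (adjusted p = 3.96e-07). Gpt2, the mitochondrial alanine aminotransferase, fell from 5.74 (4.21 to 6.29) to 2.48 (0.934 to 4.61), a change of -1.22 ± 0.19 (adjusted p = 1.80e-05). Got1 was also below its aged vehicle level of 3.16 ± 0.509 (-0.59 ± 0.11, adjusted p = 0.00146). Of the committed enzymes, Pck1 was at 28.7 (11.2 to 41.6) in young and 29.3 (15.8 to 43.9) in treated liver and G6pc at 6.17 (3.34 to 14.2) and 11.6 (4.0 to 22.1). Neither was called (-0.02 ± 0.24 and 0.70 ± 0.33, adjusted p = 0.948 and 0.0975). In glycolysis and glycogen 4 of 23 tested genes fell and 2 rose (3 of 22 and 0 without the low-7SL libraries), shares that lie near or under those of all loci (16.6% and 18.3%). Pfkfb1, which sets the fructose 2,6-bisphosphate signal of liver, fell from 1.19 (0.779 to 2.87) to 0.581 (0.392 to 0.79), a change of -1.14 ± 0.20 (adjusted p = 7.87e-05). Ugp2, which makes UDP-glucose for glycogen, fell from 17.7 (12.3 to 24.4) to 10.2 (5.43 to 12.7), a change of -1.05 ± 0.17 (adjusted p = 4.28e-05). The other 2 that fell were Slc2a1 and Gbe1, and those that rose were Gapdh and Slc2a2.

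Chaperones of the endoplasmic reticulum (ER) fold the proteins that liver secretes. In the list of ER chaperones and other protein folding genes, 19 of 28 tested members were lower and none higher. The list is wider than the ER and takes in Dnajb1 and Hsph1. Their median change was -0.39, and without the low-7SL libraries 16 were lower and none higher. Hspa5 (BiP, the ER Hsp70, at chr3:19157874-19162333 in rn5) fell from 25 (20.7 to 32.9) to 16.7 (14.5 to 18.3) without overlap, a change of -0.61 ± 0.088 (adjusted p = 7.23e-06). Its aged vehicle level of 20.8 ± 3.12 lay between, and the treated level was below it (-0.31 ± 0.088, adjusted p = 0.0186). The ER Hsp90 Hsp90b1 fell from 10.6 (6.86 to 14.6) to 6.8 (5.36 to 6.98), a change of -0.73 ± 0.12 (adjusted p = 5.77e-05), and 8 of 8 treated libraries lay below the young median. Calreticulin (Calr), a lectin chaperone of the ER lumen, fell from 30.8 (29.1 to 44.6) to 21.7 (16.1 to 24.3) without overlap, a change of -0.68 ± 0.090 (adjusted p = 2.55e-06), and here aged vehicle liver was near the treated level, at 22.5 ± 1.8 (-0.11 ± 0.090, adjusted p = 0.396). Dnajc3, a co-chaperone of BiP, fell from 15.8 (12.6 to 18.3) to 11.6 (10.1 to 12.6) without overlap, though the ranges nearly met, a change of -0.45 ± 0.063 (adjusted p = 5.52e-06), and Hyou1, an ER member of the Hsp110 family, from 4.48 (3.15 to 6.33) to 2.65 (2.06 to 3.11) without overlap, a change of -0.66 ± 0.13 (adjusted p = 0.000272). Xbp1, a factor that activates such genes, was at 7.89 (5.35 to 9.31) in young and 6.59 (5.62 to 8.11) in treated liver and was not called, with a change of -0.15 ± 0.11 (adjusted p = 0.272).

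The promoters of these genes are shown because chaperones that move together are known to share the ER stress element. The motif searched was CCAAT and CCACG with 9 bases of any kind between them, on either strand, chosen with the results known, in RefSeq promoters of the assembly GRCr8 that run from 250 bases before to 50 bases after the start. It was present in 7 of the 24 tested list members with a promoter (Calr, Canx, Creld2, Dnajc3, Hsp90b1, Hspa5 and Xbp1), of which all but Xbp1 were called lower, and in 0.0657% of all 33469 promoters. Each promoter is written 5′ to 3′ on the strand of the gene, with the matches to the element in capitals; a match in the reverse orientation begins with CGTGG.
Hspa5, chr3:38452766-38453065 (+ strand): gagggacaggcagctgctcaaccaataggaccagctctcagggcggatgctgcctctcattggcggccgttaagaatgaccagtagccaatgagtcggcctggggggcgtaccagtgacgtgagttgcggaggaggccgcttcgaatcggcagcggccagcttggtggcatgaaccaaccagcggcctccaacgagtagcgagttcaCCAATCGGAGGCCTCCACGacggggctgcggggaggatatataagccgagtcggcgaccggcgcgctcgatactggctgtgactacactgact
Hsp90b1, chr7:23012244-23012543 (- strand): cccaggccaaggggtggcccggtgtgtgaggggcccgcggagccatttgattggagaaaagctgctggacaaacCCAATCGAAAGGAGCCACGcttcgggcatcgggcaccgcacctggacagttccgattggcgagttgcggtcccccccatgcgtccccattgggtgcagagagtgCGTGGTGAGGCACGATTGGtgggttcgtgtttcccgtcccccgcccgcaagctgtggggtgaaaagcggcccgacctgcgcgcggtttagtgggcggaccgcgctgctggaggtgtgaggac
Calr, chr19:40213117-40213416 (+ strand): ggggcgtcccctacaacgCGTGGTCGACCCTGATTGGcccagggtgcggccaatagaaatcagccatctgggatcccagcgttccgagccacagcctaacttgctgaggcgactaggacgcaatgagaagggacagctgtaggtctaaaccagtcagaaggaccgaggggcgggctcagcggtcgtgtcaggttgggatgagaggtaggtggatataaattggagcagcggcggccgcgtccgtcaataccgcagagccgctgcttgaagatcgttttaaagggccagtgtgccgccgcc
Dnajc3, chr15:102432417-102432716 (+ strand): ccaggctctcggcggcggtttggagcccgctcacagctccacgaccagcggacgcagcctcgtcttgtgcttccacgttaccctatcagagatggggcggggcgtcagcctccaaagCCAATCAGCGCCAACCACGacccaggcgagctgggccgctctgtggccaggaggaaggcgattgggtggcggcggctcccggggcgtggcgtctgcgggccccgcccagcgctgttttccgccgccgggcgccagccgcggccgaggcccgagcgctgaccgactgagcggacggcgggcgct

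Hspa5 held 1 forward match that began 43 bases before the start, and Dnajc3 1 forward match that began 133 bases before it. Hsp90b1 held a forward match 176 bases and a reverse match 72 bases before the start, and Calr 1 reverse match 232 bases before it. A match is a description of the sequence and says nothing of what bound there. For comparison, TCACNCCAC, a form of the sterol regulatory element, was in none of the 18 tested sterol list members with a promoter and in 1.12% of all promoters. The STAT5 motif TTCNNNGAA was in 1 of 12 male-patterned members (Rup2) and in 8.87% of all.

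**Figure D4:**
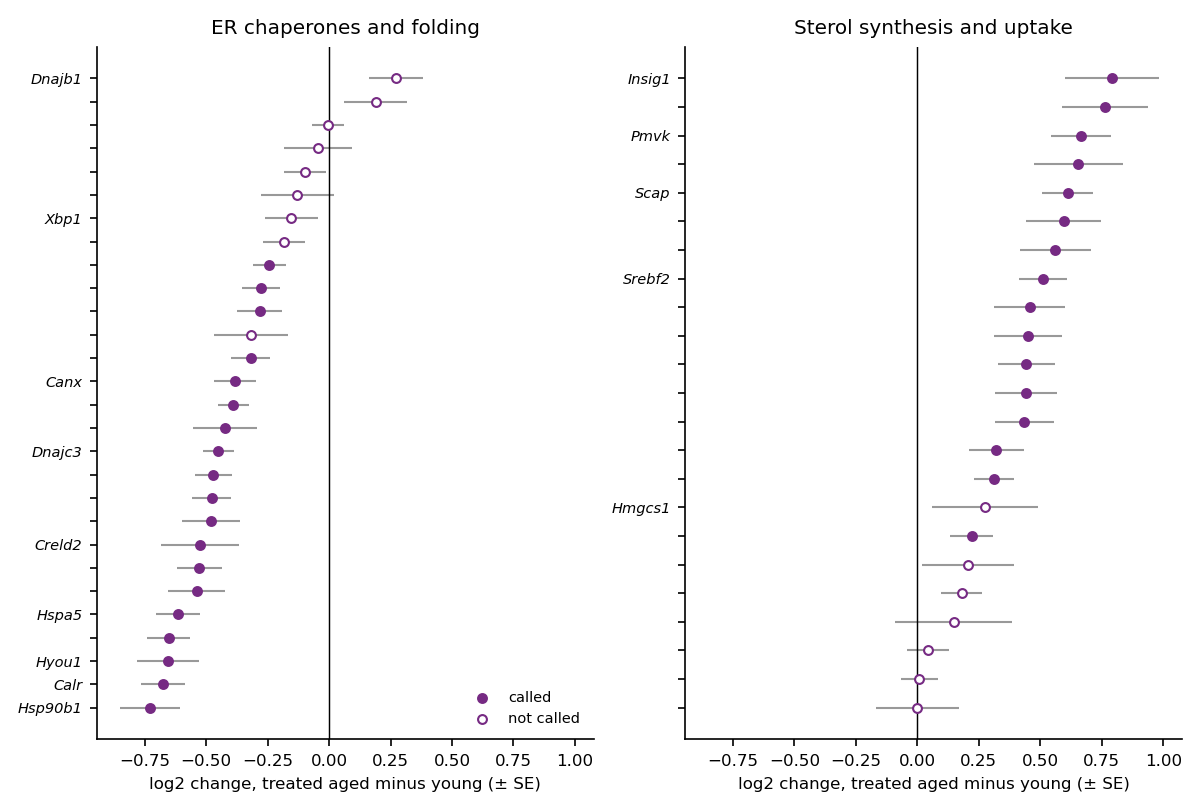
Log2 change ± SE (treated aged minus young liver) of the reported members of the list of ER chaperones and protein folding (left) and the sterol list (right). Filled points mark called genes, and names are given for genes in the text. The folding list runs from -0.73 (Hsp90b1) to 0.27 (Dnajb1, not called) and sterol genes reach 0.79 (Insig1).

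Ribosomal protein transcripts were modestly higher in treated aged liver. Of 77 tested cytosolic ribosomal protein genes 45 rose and none fell, with a median of 0.22, and without the low-7SL libraries 31 rose and none fell. Rplp0, the acidic stalk protein, rose from 26.2 (20.5 to 32) to 32.8 (32 to 34.5) without overlap, though the ranges nearly met, a change of 0.36 ± 0.073 (adjusted p = 0.000422), and the treated level was above the aged vehicle level of 28.7 ± 3.22 (0.21 ± 0.073, adjusted p = 0.0448). Over the list the median change was smaller, 0.07 for treated minus aged vehicle liver, beside 0.16 for aged vehicle minus young liver. The rRNA precursor Rn45s was also higher (p = 0.0185 by the exact permutation test, and 0.262 without the low-7SL libraries), and its part in these counts was not tested. Of 36 tested ribosome biogenesis genes 12 rose and 1 fell (6 and 0 without the low-7SL libraries). The gene that fell was Ncl, nucleolin (-0.28 ± 0.083, adjusted p = 0.01), whose call was lost without those libraries (-0.20, adjusted p = 0.114).

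Of 27 tested translation factors 11 rose and 4 fell (9 and 0 without the low-7SL libraries). Elongation factor Eef2 (chr7:11568907-11574177) rose from 26.6 (21.7 to 30.5) to 35.1 (31.5 to 37.1) without overlap, a change of 0.44 ± 0.079 (adjusted p = 0.000141), and treated liver was above aged vehicle liver (28 ± 3.47; 0.32 ± 0.079, adjusted p = 0.00916). Eif4ebp1, which encodes the translation repressor 4E-BP1 that mTORC1 inactivates, rose from 1.12 (0.825 to 1.3) to 1.68 (1.53 to 2.14) without overlap, a change of 0.68 ± 0.10 (adjusted p = 1.45e-05). The aged vehicle level of Eif4ebp1, 1.61 ± 0.269, was near the treated one (0.12 ± 0.10, adjusted p = 0.406). In the drug's own pathway 4 of 35 tested mTOR genes rose (Ulk1, Akt1, Fkbp1a and Depdc5) and 4 fell (Sgk1, Fnip1, Lamtor5 and Mapkap1), beside 18.3% higher and 16.6% lower over all loci, and without the low-7SL libraries 4 rose and 2 fell. The kinase Mtor was at 0.608 (0.532 to 0.696) in young and 0.588 (0.442 to 0.678) in treated liver and was not called, with a change of -0.07 ± 0.064 (adjusted p = 0.397). Its mTORC1 partner Rptor was not called either (-0.06 ± 0.069, adjusted p = 0.544). Fkbp1a, which encodes the drug's binding protein FKBP12, rose from 3.56 (3.1 to 3.94) to 4.33 (3.89 to 5.11), a change of 0.29 ± 0.058 (adjusted p = 0.00035). Ulk1, the autophagy kinase that mTORC1 restrains, rose from 0.15 (0.0935 to 0.211) to 0.276 (0.22 to 0.365) without overlap, a change of 0.62 ± 0.10 (adjusted p = 6.98e-05). Fnip1, a partner of folliculin, fell from 0.656 (0.498 to 0.935) to 0.44 (0.35 to 0.51), a change of -0.47 ± 0.094 (adjusted p = 0.000384), also below its aged vehicle level of 0.737 ± 0.113 (-0.61 ± 0.094, adjusted p = 0.000338). Its change was -0.32 without the low-7SL libraries. Sgk1, a kinase downstream of mTORC2, fell from 1.2 (0.66 to 1.64) to 0.665 (0.452 to 1.11), a change of -0.68 ± 0.17 (adjusted p = 0.00369).

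Immediate early genes, transcription factors and other regulators that cells switch on within minutes of a stimulus, were higher in treated aged liver. Of 19 tested members 12 rose and none fell, with a median of 0.62, and without the low-7SL libraries 13 rose and none fell. Junb (chr19:37068595-37070379) rose from 0.817 (0.534 to 1.32) to 2.21 (1.45 to 4.21) without overlap, a change of 1.35 ± 0.22 (adjusted p = 4.67e-05). Jun rose from 0.738 (0.478 to 1.3) to 2.08 (1.28 to 2.82), a change of 1.33 ± 0.21 (adjusted p = 2.75e-05), and the lowest treated library was just under the highest young one. Treated liver was also above aged vehicle liver for Jun (1.3 ± 0.468; 0.70 ± 0.21, adjusted p = 0.0242). Jund rose from 1.6 (0.506 to 2.83) to 3.86 (2.43 to 5.0), a change of 1.32 ± 0.26 (adjusted p = 0.000313), which became 0.86 without the low-7SL libraries. The antiproliferative gene Btg2 rose from 0.374 (0.213 to 0.503) to 0.826 (0.471 to 0.992), a change of 0.87 ± 0.18 (adjusted p = 0.000462). The transcription factor Myc rose from 0.0836 (0.0405 to 0.296) to 0.27 (0.155 to 0.595), a change of 1.002 ± 0.17 (adjusted p = 7.32e-05), and was above aged vehicle liver as well (0.57 ± 0.17, adjusted p = 0.0242). Fos, Fosb, Egr1, Egr2, Nr4a1, Nr4a2 and Klf4 were below the filter and were not tested.

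The promoters of Jund and Btg2 are shown because they held the cyclic AMP response element TGACGTCA, searched on either strand with the results known. It was in 4 of the 13 tested list members with a promoter (Btg2, Dusp1, Ier2 and Jund), of which all but Dusp1 were called higher, and in 1.83% of all promoters. The AP-1 motif TGANTCA was in none of the 13 and in 7.33% of all promoters. The element is in capitals and began 221 bases (Jund) and 201 bases (Btg2) before the start.
Jund, chr16:18769722-18770021 (- strand): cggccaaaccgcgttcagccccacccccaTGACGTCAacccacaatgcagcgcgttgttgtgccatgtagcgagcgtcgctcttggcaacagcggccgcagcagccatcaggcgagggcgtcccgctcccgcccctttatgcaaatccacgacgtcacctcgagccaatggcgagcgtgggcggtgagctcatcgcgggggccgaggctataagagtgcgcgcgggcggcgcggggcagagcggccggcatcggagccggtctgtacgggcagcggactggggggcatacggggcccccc
Btg2, chr13:48087641-48087940 (- strand): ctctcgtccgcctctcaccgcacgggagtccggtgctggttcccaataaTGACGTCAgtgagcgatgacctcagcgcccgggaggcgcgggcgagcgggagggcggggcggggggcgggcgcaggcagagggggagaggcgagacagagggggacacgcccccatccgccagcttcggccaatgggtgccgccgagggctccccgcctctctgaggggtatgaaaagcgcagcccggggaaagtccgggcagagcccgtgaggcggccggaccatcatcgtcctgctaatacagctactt

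Of 18 tested p53 targets and senescence genes 8 rose and 1 (Glb1) fell, with a median of 0.22, and without the low-7SL libraries 6 rose and 1 fell. Cdkn1a, the cell cycle inhibitor p21, rose from 0.542 (0.236 to 0.886) to 1.3 (0.816 to 1.9), a change of 1.11 ± 0.20 (adjusted p = 0.000111), and treated liver was above the aged vehicle level of 0.80 ± 0.317 (0.71 ± 0.20, adjusted p = 0.0163). The stress hormone Gdf15 rose from 0.217 (0.0621 to 0.466) to 0.65 (0.339 to 1.65) (adjusted p = 0.000625), with 0.383 ± 0.169 in aged vehicle liver. Cdkn2b, the inhibitor p15, was low throughout but did not overlap, at 0.0356 (0.00873 to 0.0755) in young and 0.117 (0.0763 to 0.188) in treated liver, a change of 0.72 ± 0.11 (adjusted p = 1.53e-05). The death receptor Fas rose from 0.264 (0.175 to 0.364) to 0.512 (0.378 to 0.64) without overlap, a change of 0.75 ± 0.088 (adjusted p = 3.96e-07). For Cdkn2b and Fas the aged vehicle levels (0.113 ± 0.0382 and 0.524 ± 0.0548) were near the treated ones (0.10 ± 0.11 and -0.02 ± 0.088, adjusted p = 0.534 and 0.91). Of 9 tested proliferation genes 4 fell (Ccnd1, Rrm1, Mcm2 and Pcna) and 1 rose (Mcm7), while without the low-7SL libraries 1 fell and none rose. The other 20 proliferation genes in the tables, Mki67 and Top2a among them, were below the filter.

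**Figure D5:**
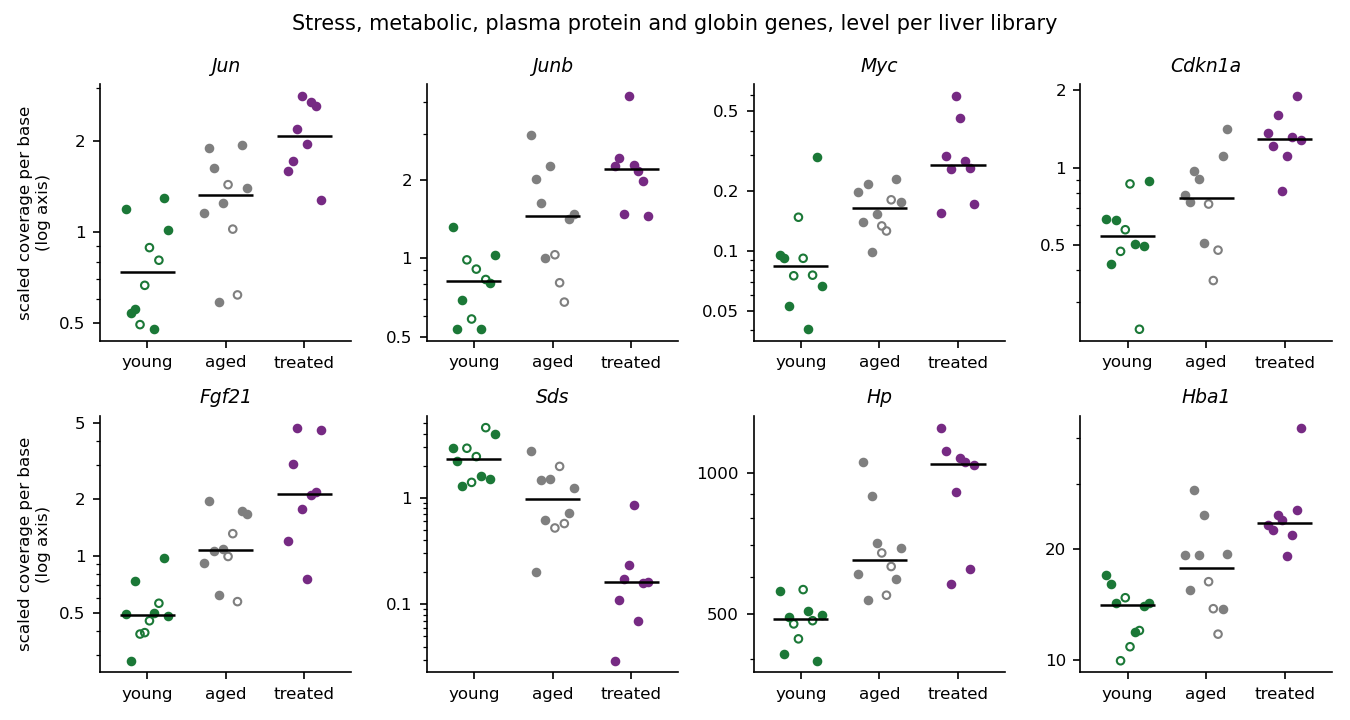
Scaled coverage per base on a log axis in each liver library for Jun, Junb, Myc, Cdkn1a, Fgf21, Sds, Hp and Hba1, with open points for low 7SL and lines at group medians. Treated medians are highest of the 3 groups for all but Sds, for which they are lowest, and 1 treated library stands apart for Hba1 at 42.6.

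Plasma proteins that liver makes in the acute phase response moved in both directions. Of 30 tested acute phase genes 13 rose and 6 fell (11 and 6 without the low-7SL libraries), with a median of 0.21. Haptoglobin (Hp, chr19:52921384-52925934), which binds free hemoglobin, rose from 488 (397 to 563) to 1045 (579 to 1246) without overlap, a change of 0.94 ± 0.14 (adjusted p = 1.29e-05), and was above aged vehicle liver at 693 ± 162 (0.45 ± 0.14, adjusted p = 0.0319). Hemopexin (Hpx) rose from 122 (98.8 to 132) to 209.7 (126 to 286), a change of 0.68 ± 0.14 (adjusted p = 0.000569), and the copper oxidase ceruloplasmin (Cp) from 56.9 (44 to 82.5) to 95.5 (60.1 to 152), a change of 0.75 ± 0.15 (adjusted p = 0.000533). Stat3, the factor that carries the interleukin-6 signal, rose from 1.44 (1.26 to 2.0) to 3.01 (1.96 to 4.05), a change of 0.97 ± 0.13 (adjusted p = 4.57e-06). Unlike Hp, the genes Hpx, Cp and Stat3 were not called against aged vehicle liver (adjusted p = 0.189, 0.699 and 0.415). Lbp, which binds bacterial lipopolysaccharide, rose from 0.502 (0.331 to 0.68) to 1.11 (0.512 to 3.07), a change of 1.17 ± 0.26 (adjusted p = 0.00114). Fetuin-A (Ahsg), which falls in the acute phase, went from 446 (412 to 499) to 284 (236 to 329.8) without overlap, a change of -0.69 ± 0.089 (adjusted p = 1.63e-06). C-reactive protein Crp was at 162 (150.3 to 187) in young and 159.6 (135 to 182) in treated liver, and Crp and albumin Alb were not called (-0.04 ± 0.070 and -0.20 ± 0.14, adjusted p = 0.709 and 0.277). Both stood apart from aged vehicle liver, Crp above its 133 ± 12.8 (0.28 ± 0.070, adjusted p = 0.0111) and Alb below its 4320 ± 950.4 (-0.50 ± 0.14, adjusted p = 0.018).

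Hepcidin (Hamp), the hormone that lowers iron export, rose from 34.5 (14.3 to 50.3) to 49.98 (42 to 72.9), a change of 0.72 ± 0.22 (adjusted p = 0.0105), and was above aged vehicle liver (36.3 ± 12.1; 0.66 ± 0.22, adjusted p = 0.0368). With the 7SL level as a covariate the change was 0.48 and not called (adjusted p = 0.0698), and without the low-7SL libraries it was 0.50 and called (adjusted p = 0.0326). Of 24 tested iron genes 8 rose and 2 (Hfe and Ireb2) fell, and 5 and 2 without the low-7SL libraries. Among 35 tested complement and coagulation genes 13 rose and 3 (Mbl2, Pros1 and Cd59) fell, and 9 and 2 without those libraries, with a median of 0.14. Cfd, complement factor D, which adipocytes also make, rose from 0.723 (0.269 to 1.06) to 1.37 (1.11 to 1.7) without overlap, a change of 0.89 ± 0.16 (adjusted p = 0.000104). C4bpa, the binding protein that restrains C4, rose from 39.2 (31.7 to 47.1) to 68 (44.7 to 89.4), a change of 0.72 ± 0.12 (adjusted p = 5.28e-05). Fgl1, a fibrinogen-like protein that hepatocytes secrete (chr16:53866814-53900250), rose from 11 (7.4 to 16.3) to 31.8 (20.4 to 42.8) without overlap, a change of 1.37 ± 0.18 (adjusted p = 2.56e-06). Apoa2, an apolipoprotein of HDL, fell from 160.3 (123 to 195) to 71.4 (55.6 to 99.9) without overlap, a change of -1.10 ± 0.14 (adjusted p = 1.39e-06), below the aged vehicle level of 109 ± 30.4 (-0.50 ± 0.14, adjusted p = 0.0169). In the lipoprotein list as a whole 5 of 28 tested genes rose and 6 fell (3 and 3 without the low-7SL libraries). The list counts of this paragraph stand beside 18.3% higher and 16.6% lower over all loci (9.6% and 9.06% without the low-7SL libraries). The lipoprotein counts lie near these shares.

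Markers of other cells in the organ also differed. Of 15 tested Kupffer cell and macrophage markers 10 rose and 1 fell (9 and 0 without the low-7SL libraries), with a median of 0.43. The marker sums given here take in every listed marker that was measured, also those below the filter. For Kupffer cells and macrophages the sum was 25.7 to 38.0 in young and 35.2 to 50.7 in treated liver (exact permutation p = 0.000137, adjusted over 14 values 0.00048). It was 29.9 to 51.9 in aged vehicle liver. C1qa, a complement chain made by macrophages, rose from 4.65 (2.98 to 5.9) to 7.68 (6.31 to 9.13) without overlap, a change of 0.78 ± 0.12 (adjusted p = 2.23e-05), and the hemoglobin scavenger receptor Cd163 from 0.759 (0.60 to 0.985) to 1.22 (1.03 to 1.52) without overlap, a change of 0.58 ± 0.11 (adjusted p = 0.000192). The marker that fell was the scavenger receptor Msr1 (-0.30 ± 0.098, adjusted p = 0.0195; -0.22 and adjusted p = 0.177 without the low-7SL libraries). Itgam and Trem2 were below the filter. Erythroid markers rose in all 4 tested members (Hba1, Hba2, Hbb-b1 and Alas2), and in all 4 without the low-7SL libraries. Alpha-globin Hba1 was at 14.2 (9.98 to 17.1) in young and 23.6 (19.1 to 42.6) in treated liver, without overlap, a change of 0.88 ± 0.15 (adjusted p = 6.06e-05). The summed erythroid level was 23.5 to 35.0 in young and 38.3 to 86.6 in treated liver (exact permutation p = 4.57e-05, the smallest that this two-sided test can give; adjusted 0.00032). Treated replicate 9 was highest, and without it the treated range was 38.3 to 53.4 (exact permutation p = 0.000103). Haptoglobin, hemopexin and Cd163, named above, handle hemoglobin and heme, and the part of blood content in their values was not tested.

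Matrix and stellate cell genes fell or were not called in most cases. Of 27 tested members 8 fell and 3 (Ctgf, Fn1 and Timp2) rose, beside 16.6% lower and 18.3% higher over all loci. Without the low-7SL libraries 7 of 25 fell and 0 rose. Collagen Col3a1 (chr9:51689492-51725418) fell from 2.71 (2.35 to 2.93) to 1.51 (1.16 to 1.81) without overlap, a change of -0.79 ± 0.090 (adjusted p = 3.03e-07). Sparc, a collagen-binding protein, fell from 1.86 (1.65 to 2.07) to 1.26 (1.01 to 1.37), a change of -0.58 ± 0.063 (adjusted p = 1.24e-07), and Lrat, the retinol esterifying enzyme of stellate cells, from 0.879 (0.729 to 1.17) to 0.608 (0.385 to 0.659), a change of -0.56 ± 0.096 (adjusted p = 7.32e-05), both without overlap. Aged vehicle levels were 1.67 ± 0.316, 1.36 ± 0.151 and 0.672 ± 0.118, near the treated ones (adjusted p = 0.429, 0.122 and 0.201 against treated). Fibronectin Fn1, which hepatocytes also secrete, rose from 9.78 (8.95 to 10.7) to 12 (9.27 to 15.9), a change of 0.27 ± 0.082 (adjusted p = 0.012), a call lost without the low-7SL libraries (0.26, adjusted p = 0.0672). The summed level of this list was 30.1 to 32.2 in young and 25.8 to 36.6 in treated liver (exact permutation p = 0.514). Fn1 is a large part of this sum and rose, whereas 8 members fell. The p of the sum therefore does not show that the other members were unchanged, and a sum without Fn1 was not tested. Of 13 tested sinusoidal endothelial markers 1 rose (Flt4) and 1 fell (Tek), beside 18.3% higher and 16.6% lower over all loci, and neither was called without the low-7SL libraries. Of 8 tested genes of the lymphocyte list 2 rose (Cd4 and Ccl5) and none fell, with and without those libraries. This count and those that follow in this paragraph stand beside 18.3% higher and 16.6% lower over all loci (9.6% and 9.06% without those libraries). Cd4 was 0.411 to 0.663 in young and 0.519 to 0.984 in treated liver. Whether Cd4 marks only lymphocytes in this organ was not tested. The sums in this paragraph also take in every listed marker that was measured, those below the filter included. Over 21 lymphocyte markers the sum was 1.51 to 2.23 in young and 1.78 to 2.57 in treated liver (exact permutation p = 0.00667, adjusted 0.0134). Of 3 tested neutrophil markers 1 rose (S100a9) and none without the low-7SL libraries. Over the 10 measured neutrophil and monocyte markers the sum was 0.276 to 0.54 in young and 0.378 to 2.12 in treated liver (exact permutation p = 0.00498, adjusted 0.0116). Of 2 tested adipocyte markers 1 rose (Cfd), also without those libraries. Over the 7 measured adipocyte markers the sum was 2.01 to 3.08 in young and 2.84 to 3.71 in treated liver (exact permutation p = 0.000274, adjusted 0.000768). Such sums are weighted to their most covered members. Cfd alone was 0.269 to 1.06 in young and 1.11 to 1.70 in treated liver, so this sum may largely repeat the rise of Cfd. A sum without Cfd was not tested. The summed cholangiocyte markers were 2.51 to 3.56 in young and 3.66 to 4.66 in treated liver without overlap (exact permutation p = 4.57e-05, adjusted 0.00032). In aged vehicle liver the sum was 3.78 to 5.03. Of 6 tested members 1 was called (Aqp1, higher), and 2 without the low-7SL libraries, both higher. Mean Aqp1 was 1.63 in young and 2.37 in treated liver, beside 3.08 and 4.22 for the mean sum. The cholangiocyte sum may therefore largely repeat the rise of Aqp1, and a sum without Aqp1 was not tested. Whether Aqp1 marks only cholangiocytes in this organ was not tested either.

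Some interferon response genes were higher. Of 42 tested interferon response genes 11 rose and 2 (Ubd and Stat2) fell, and 6 and 0 without the low-7SL libraries. These counts and those of the chemokine list stand beside 18.3% higher and 16.6% lower over all loci (9.6% and 9.06% without those libraries). Ubd was not low in every treated library. Treated replicates 5, 6 and 8 read 3.58, 3.74 and 3.10, and the other treated libraries 0 to 0.0148. Young libraries ranged from 0.0601 to 5.54. Psmb10, an immunoproteasome subunit (chr19:48776575-48779058), rose from 1.16 (0.908 to 1.58) to 2.74 (2.11 to 3.22) without overlap, a change of 1.11 ± 0.11 (adjusted p = 1.54e-08), with 2.28 ± 0.419 in aged vehicle liver. Ifitm3, a membrane protein that restricts viral entry, rose from 2.19 (1.64 to 2.74) to 4.16 (2.24 to 5.75), a change of 0.90 ± 0.14 (adjusted p = 1.64e-05). The invariant chain Cd74 was at 3.94 (3.52 to 5.02) in young and 3.44 (2.48 to 5.96) in treated liver and was not called, with a change of -0.08 ± 0.13 (adjusted p = 0.646). Of 16 tested chemokine and adhesion genes 7 rose and 1 fell (5 and 1 of 15 without the low-7SL libraries). The neutrophil chemokine Cxcl1 rose from 0.0852 (0.0239 to 0.568) to 0.845 (0.0613 to 2.31), a change of 1.71 ± 0.40 (adjusted p = 0.00159), and the B cell chemokine Cxcl13 fell from 0.227 (0.0214 to 0.523) to 0.0534 (0.0255 to 0.102), a change of -0.86 ± 0.22 (adjusted p = 0.00309).

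Some genes of treated aged liver lay outside both vehicle groups, that is, they were called in the same direction against young and against aged vehicle liver. Besides Sds and Got1, the falls with the smallest p-values included those of Apof, Yeats4 and Sptssa. Apof, a lipid transfer inhibitor of plasma, fell from 20.7 (16.4 to 24.6) to 11.3 (8.8 to 14.8) without overlap, a change of -0.81 ± 0.0999 (adjusted p = 8.90e-07), against 18 ± 2.5 in aged vehicle liver (-0.65 ± 0.0999, adjusted p = 0.000338). Yeats4, a reader of histone acylation, fell from 1.79 (1.32 to 2.39) to 1.12 (0.886 to 1.24) without overlap, a change of -0.65 ± 0.095 (adjusted p = 8.29e-06), against 1.69 ± 0.245 (-0.57 ± 0.095, adjusted p = 0.000435). Sptssa, a small subunit of serine palmitoyltransferase, fell from 6.17 (4.81 to 9.0) to 4.69 (3.99 to 4.84), a change of -0.47 ± 0.089 (adjusted p = 0.000222), against 7.09 ± 0.811 (-0.62 ± 0.089, adjusted p = 0.000295). Among the rises was the secreted chaperone clusterin (Clu, chr15:48926521-48965757), from 18.5 (14.8 to 20.6) to 25 (23.1 to 28.9) without overlap, a change of 0.49 ± 0.080 (adjusted p = 4.21e-05), against 18 ± 2.4 (0.50 ± 0.080, adjusted p = 0.00035). Parathymosin (Ptms), a small acidic nuclear protein, rose from 4.7 (3.56 to 5.19) to 6.48 (5.88 to 7.22) without overlap, a change of 0.48 ± 0.076 (adjusted p = 2.74e-05), against 4.11 ± 0.624 (0.65 ± 0.076, adjusted p = 1.74e-05). Txnip, the thioredoxin-interacting protein that responds to glucose, rose from 1.56 (1.38 to 1.63) to 2.38 (1.62 to 2.58), a change of 0.50 ± 0.077 (adjusted p = 1.79e-05), against 1.57 ± 0.169 (0.48 ± 0.077, adjusted p = 0.00035). The GTPase Rhob rose from 0.454 (0.346 to 0.659) to 1.01 (0.785 to 1.24) without overlap, a change of 0.95 ± 0.14 (adjusted p = 1.14e-05), against 0.601 ± 0.221 (0.75 ± 0.14, adjusted p = 0.00153). None of these 7 genes was called between the vehicle groups, whereas Sds and Got1 were also lower in aged vehicle than in young liver (-1.20 ± 0.34 and -0.35 ± 0.10, adjusted p = 0.0142 and 0.0177).

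Other genes differed from young liver by a similar amount in both aged groups, with a treated minus aged vehicle change under 0.2 on the log2 scale. Lect2, a secreted chemotactic protein of hepatocytes (chr17:10665529-10671747), fell from 7.76 (5.16 to 8.56) to 2.28 (2.12 to 2.91) without overlap, a change of -1.54 ± 0.096 (adjusted p = 2.74e-12), with 2.79 ± 0.365 in aged vehicle liver (-0.19 ± 0.096, adjusted p = 0.175). Akr1c2, an aldo-keto reductase of steroids, fell from 1.18 (0.895 to 1.46) to 0.349 (0.251 to 0.564) without overlap, a change of -1.48 ± 0.15 (adjusted p = 2.79e-08), with 0.406 ± 0.135. Casp12, a caspase of the ER, rose from 0.82 (0.594 to 1.1) to 1.73 (1.38 to 3.38) without overlap, a change of 1.22 ± 0.17 (adjusted p = 3.22e-06), with 2.09 ± 0.669. Aldh1a1, the retinal dehydrogenase, rose from 6.3 (1.52 to 13.3) to 17 (11.5 to 21.4), a change of 1.57 ± 0.29 (adjusted p = 0.000188), with 15.6 ± 5.25. A p over the threshold against aged vehicle liver does not show that these levels were equal.

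Further genes among the 15 largest rises and falls were on no list. Abcb1b, a P-glycoprotein drug exporter (chr4:22161935-22244635), rose from 0.379 (0.18 to 0.539) to 1.94 (1.34 to 3.15) without overlap, a change of 2.22 ± 0.18 (adjusted p = 9.87e-10), above the aged vehicle level of 1.28 ± 0.446 (0.71 ± 0.18, adjusted p = 0.0117). Unc5cl, a death-domain protein, rose from 0.278 (0.184 to 0.424) to 1.69 (0.936 to 2.51), a change of 2.08 ± 0.20 (adjusted p = 1.54e-08), and Gas6, the ligand of the TAM receptors, from 1.62 (1.002 to 1.99) to 5.01 (3.61 to 6.51), a change of 1.59 ± 0.15 (adjusted p = 1.12e-08). Both were without overlap between treated and young libraries. The organic anion carrier Slc22a8 fell from 2.63 (0.645 to 3.35) to 0.359 (0.124 to 1.19), a change of -2.39 ± 0.31 (adjusted p = 1.59e-06), and stood at 0.131 ± 0.101 in aged vehicle liver, below the treated level (1.09 ± 0.31, adjusted p = 0.0179). Inmt, an indole N-methyltransferase, fell from 1.43 (0.404 to 2.94) to 0.17 (0.0435 to 0.513), a change of -2.28 ± 0.32 (adjusted p = 6.33e-06), and 8 of 8 treated libraries lay below the young median. The retinol dehydrogenase Rdh16 fell from 3.17 (1.85 to 6.43) to 0.71 (0.569 to 1.78) without overlap, a change of -1.78 ± 0.22 (adjusted p = 9.00e-07).

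The remaining lists are given beside 18.3% higher and 16.6% lower over all loci, and without the low-7SL libraries beside 9.6% and 9.06%. Of 33 tested Nrf2 targets and conjugation enzymes 8 rose and 9 fell (6 and 5 of 32 without the low-7SL libraries). The quinone reductase Nqo1 rose from 0.321 (0.207 to 0.469) to 0.632 (0.457 to 1.21), a change of 0.84 ± 0.20 (adjusted p = 0.00228). Gclm, a subunit of the glutathione-synthesising ligase, fell from 8.53 (6.83 to 10.1) to 5.37 (3.74 to 6.17) without overlap, a change of -0.77 ± 0.12 (adjusted p = 3.01e-05). Of 29 tested ATF4 targets and tRNA synthetases 7 rose and 2 (Shmt1 and Shmt2) fell, and 4 and 1 without those libraries. Of 69 tested respiratory chain genes 5 rose and 21 fell (0 and 11 without those libraries), with a median of -0.08. Of 33 tested proteasome genes 4 rose and 11 fell (2 and 8), and of 50 lysosome and autophagy genes 8 rose and 12 fell (4 and 7). Of 15 tested clock genes 3 rose and 3 fell (1 and 1). Per2 fell from 0.344 (0.255 to 0.622) to 0.13 (0.0738 to 0.469), a change of -0.91 ± 0.22 (adjusted p = 0.00234), and the repressor Nfil3 rose from 0.652 (0.346 to 0.968) to 1.02 (0.862 to 1.75), a change of 0.82 ± 0.17 (adjusted p = 0.000507). The clock output gene Dbp was at 2.02 (0.886 to 3.02) in young and 0.674 (0.104 to 3.79) in treated liver and Arntl at 0.229 (0.101 to 0.563) and 0.583 (0.0933 to 0.958), and neither was called (-1.07 ± 0.46 and 0.57 ± 0.34, adjusted p = 0.0733 and 0.187). The labels do not give the time of day at which tissue was taken. Of 6 tested MHC class II genes 1 rose (RT1-DMa) and 2 fell (RT1-Ba and RT1-Db1), and none was called without the low-7SL libraries. The elastase Cela1, the single pancreas marker above the filter, fell from 0.766 (0.442 to 0.989) to 0.273 (0.141 to 0.467), a change of -1.19 ± 0.15 (adjusted p = 1.83e-06), while 5 of the 7 pancreas markers in the tables stayed under 0.1 in every library.

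Some members named above only within small counts lay near the threshold, and leaving out 1 library ended their call. In brackets are the number of libraries with this effect, among the 18, and the change and adjusted p without the one that mattered most: Ubd (14 libraries; -1.57, adjusted p = 0.112 without treated replicate 7), Slc2a2 (13 libraries; 0.16, adjusted p = 0.105 without treated replicate 6), RT1-Db1 (11 libraries; -0.37, adjusted p = 0.103 without treated replicate 9), Sult2a1 (10 libraries; -0.73, adjusted p = 0.0764 without treated replicate 7) and Ccnd1 (9 libraries; -0.49, adjusted p = 0.0976 without treated replicate 9). The others were Flt4 (9 libraries; 0.13, adjusted p = 0.121 without treated replicate 5), Depdc5 (8 libraries; 0.17, adjusted p = 0.0831 without treated replicate 5), Mcm2 (7 libraries; -0.19, adjusted p = 0.0771 without treated replicate 3), Pcna (7 libraries; -0.15, adjusted p = 0.0879 without treated replicate 2) and Socs2 (7 libraries; 0.67, adjusted p = 0.0818 without treated replicate 8). To these are added Fgfr4 (3 libraries; 0.21, adjusted p = 0.0605 without treated replicate 3), Timp2 (2 libraries; 0.20, adjusted p = 0.0525 without treated replicate 2), Fgb (1 library; 0.30, adjusted p = 0.0563 without treated replicate 2) and Shmt2 (1 library; -0.25, adjusted p = 0.0552 without treated replicate 7). Of the 176 called genes named here, 174 were tested without the low-7SL libraries, 174 kept their sign there and 142 were called.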

How the data were processed

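Total RNA of liver was sequenced. The authors deposited, per locus and library, a coverage signal, and the submitters' processing notes name STAR 2.4.5a and the rat build rn5. No label or header states the annotation. On loci of at most 130 bases, value times length came out as whole multiples of 1 step per library (within 10 bases of length), so each value was taken as mean read coverage per base times a factor per library, and the inverse step as relative depth. Precision beyond that and PCR duplicates could not be assessed.

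From the deposited signal, values were scaled between libraries by trimmed means of log ratios (30% trimmed on each side) and analysed as log2(value + 0.1) for loci with at least 0.1 in at least 8 of the 28 liver libraries. The log2 scale is therefore not that of the deposited values. limma 3.58.1 in R 4.3.3 fitted a mean for each of 3 groups (25 residual degrees of freedom, trended empirical Bayes), with Benjamini-Hochberg adjustment over all loci tested. Single values were compared by exact two-sided permutation tests in SciPy 1.17.1. In data simulated for this comparison over 8991 genes, the fit recovered 33 of 50 genes changed 1.25-fold, 47 of 50 changed 1.5-fold, 50 of 50 changed 2-fold and 50 of 50 changed 4-fold, with 10 false calls among 8791 unchanged genes. Residuals were shuffled within each gene, so variation shared between genes, such as that of the low-7SL libraries, was absent from the simulated data. The simulated false calls therefore do not describe its effect on this comparison. Of 17502 loci in the tables, 505 carried a symbol held by another locus and 140 carried joined symbols.

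The groups, gene lists, motifs and members were chosen with earlier results of these data known. Genes were named by a rule: the 15 largest rises and falls with a mean of at least 1, up to 4 called members of each list by p, up to 8 per direction outside both vehicle groups or near aged vehicle, and a set of fixed genes. Igfals, Ghr, Cyp3a18, Cyp2c22, Cyp2e1, Slc10a1, Abcb4, Insig1, Dgat2, Pdk4, Acadm, Oat, Hsp90b1, Hyou1, Xbp1, Rplp0, Sgk1, Jund, Btg2, Hpx, Lbp, Msr1, Lrat and Fn1, and members named only within counts, were chosen after their values were seen. Sequences are from RefSeq (GRCr8), whose coordinates differ from the rn5 coordinates of the files. Promoters were matched by symbol for 6844 of the tested symbols. Some genes are not reported here by name, though list counts include them.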

Additional observations from a re-analysis of the deposited data

Results flagged for a closer look

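Of 386 gene and group pairs examined, 15 had a library whose gap to the next was large for the range of its group by Dixon's ratio on log2 levels, a criterion that chance meets in about 1 of 20 pairs. Treated replicate 9 was highest for all 4 erythroid transcripts, at 42.6 for Hba1, 31.4 for Hba2, 11.8 for Hbb-b1 and 0.673 for Alas2, where the next highest treated libraries read 25.5, 19.8, 7.8 and 0.387. Young replicate 4 was highest for Akr1b7 (0.16), Elovl2 (1.34) and Cxcl1 (0.568), and lowest for Hamp (14.3). Young replicate 9 was highest for Abcc3 (0.417), and young replicate 2 was lowest for Pck1 (11.2) and Slc22a8 (0.645). Young replicate 10 was lowest for Ubd (0.0601) and young replicate 8 for RT1-DMa (0.0707). In treated liver, replicate 7 was lowest for Amacr (5.63) and replicate 5 highest for Scap (1.15). Young replicates 4 and 8 are among the low-7SL libraries. The causes were not tested.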

How the results depend on the processing

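No called gene named here changed sign under any alternative listed here. The counts moved by more than 1.5 times under 4 of them. With the filter at a value of at least 1 in 8 libraries, 1471 of 3228 loci were called (573 higher and 898 lower). Without the low-7SL libraries 1652 were called (850 and 802), and at an adjusted p under 0.01 there were 1857 (957 and 900). At an adjusted p under 0.05 with a change of at least 1.5-fold there were 419 (239 and 180). Of the calls 52.4% were higher with the filter used here, 54.8% with no filter and 39.0% with the stricter one. Between 2743 (without treated replicate 7) and 3259 (without young replicate 9) loci were called when 1 library was left out, 1438 to 1697 higher and 1300 to 1566 lower. Upper-quartile scaling gave 3153 calls (1521 and 1632), values as deposited 2961, no filter 3352, the 7SL covariate 2307 (1192 and 1115), and the fit of the 2 groups alone 3080. Same-numbered libraries did not pair (r from -0.22 to 0.116 between their deviations). The fit with the replicate number as a replicate block gave 2905 calls, 1525 higher and 1380 lower. Without the low-7SL libraries 32 called genes named here lost their call, with the 7SL covariate 17, and with upper-quartile scaling 2. The causes were not tested. With 0.01 or 0.5 added in place of 0.1, 3121 and 3131 loci were called.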
